A study of Rosa rugosa with 9 samples.

Results

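Phosphate transport and phosphate-starvation signalling genes were examined in tender roots of the rose Rosa rugosa 'Zizhi'. Of 47983 genes in the deposited table, 45 were chosen because their Swiss-Prot description names a phosphate transporter, a PHO1 homolog, a mitochondrial phosphate carrier, an SPX domain, a phosphate starvation response protein, a PHR1-LIKE protein or ubiquitin-conjugating enzyme E2 24. These words matched 50 genes, and the rule left out 5 of them, which are PHO1 homolog 1, SPX domain-containing protein 4, both copies of low affinity transporter 4, and low affinity transporter 8. The words were matched to descriptions and not to expression values, whereas the 5 genes were left out by gene ID. Both choices were made with earlier results of these data known.

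All plants were 1 year old, grew in sand in pots in a greenhouse, and received 200 ml of Hoagland's solution per pot each week for 37 weeks. HA2 plants received 0.0368 g of ammonium dihydrogen phosphate, 40% of the control phosphorus, with 0.0552 g of humic acid counted as the other 60%. For HA1 plants it was 0.0552 g of the salt, 60% of the control phosphorus, with 0.0368 g of humic acid counted as the other 40%. CK plants, the control, received 0.092 g of the salt, which is 100% of the phosphorus, and no humic acid. Each group had 3 libraries of polyadenylated root RNA, with 33847262 to 42988605 counts per library. As phosphate salt went down, ammonium went down and humic acid went up, so these changes cannot be told apart in any comparison. Whether replicates are separate plants is not stated, and the p-values therefore measure only the spread among these libraries, which may be technical.

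Plants take up phosphate through PHT1 proteins, which carry it across the plasma membrane together with protons, and load it into the xylem through PHO1. SPX domain proteins bind inositol pyrophosphates when phosphate is plentiful and then hold back the PHR transcription factors, which switch on starvation genes when phosphate is scarce. PHO2, the ubiquitin-conjugating enzyme E2 24 of Arabidopsis, marks PHT1 and PHO1 proteins for breakdown, and a microRNA made under starvation reduces its mRNA. Other carriers place phosphate in vacuoles, plastids and mitochondria.

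Descriptions come from the best Swiss-Prot match and a second annotation column in the table does not always give the same name. The 2 genes called PHO1-2 are there described as SPX and EXS domain-containing protein 5-like, 3 of the 4 called E2 24 as putative ubiquitin-conjugating enzyme E2 38, and all 6 called ALTERED PHOSPHATE STARVATION RESPONSE 1 (APSR1) as nitrate regulatory gene2 proteins or like them. Other names differ as well. Transporter 1-4 gene Rru04G006030 is there a probable transporter 1-3, and transporter 2-1 gene Rru05G010050 is phosphate-repressible phosphate permease pho-4-like. SPX2 gene Rru02G003860 is SPX domain-containing protein 1-like. PHOSPHATE STARVATION RESPONSE 2 (Rru03G002000) is PHR1-LIKE 1, and PHR1-LIKE 2 gene Rru05G000120 is PHR1-LIKE 3-like. No sequences of the members were available here, so names rest on these descriptions. Gene pairs with the same description may share reads, and how the counting treated shared reads is not given in the sources used here.

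Of the 45 members, 38 passed the filter on low counts and were tested, and 7 were not. Transporter 1-7 (Rru06G039710) and an E2 24 gene (Rru04G036940) had 0 counts in every library. The other 5 untested genes reached at most 14 counts in a library. The 38 tested genes passed a filter that a gene can meet through 1 group alone, so counts among them describe these genes and not the whole set. Levels of a single gene are given as CPM, counts relative to library size after TMM scaling, which evens out library composition. Levels of different genes are compared as the deposited FPKM, which is per kilobase of gene.

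Some libraries stood apart. On the first principal component of all tested genes, which carried 43.9% of the variance, HA2 replicate 3 was at -45.8 and the CK libraries were at -131 to -42.3, whereas HA2 replicates 1 and 2 lay at 66.4 and 39.7 and the HA1 libraries at 67.7 to 70.4. CK replicate 1 did not stand apart on this component, lying between the other CK libraries at -93.5. Calls between HA1 and CK nevertheless depended on it, and without it 0 genes of the whole table passed. Root markers were present: all 10 endodermis and stele genes were detected, at a summed 70.1 to 161 CPM per library. Of 13 genes matched by root hair words 7 were at 0, and the list summed to 311 to 455 CPM per library. Green tissue markers, of which 5 of 25 genes were at 0, summed to 45.1, 82.5 and 138 CPM in HA2, 103, 103 and 72.1 CPM in HA1, and 94.2, 177 and 209 CPM in CK; their part in the results was not tested. In bulk roots, fewer cells of a type and less RNA per cell cannot be told apart.

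By FPKM, the first 4 of the 45 members were 2 of the mitochondrial carriers and 2 of the PHT1-type transporters. Mitochondrial phosphate carrier protein 2 (Rru07G010780), which brings phosphate into mitochondria for ATP synthesis, averaged 154 ± 69.4 FPKM in HA2, 141 ± 23.1 FPKM in HA1 and 50.7 ± 26.3 FPKM in CK (mean ± SD, n = 3 each). Carrier protein 3 (Rru02G080620) followed with 95.5 ± 11.0 FPKM in HA2, 109 ± 30.6 FPKM in HA1 and 72.9 ± 12.6 FPKM in CK. Next were 2 of the 3 genes called inorganic phosphate transporter 1-4, named after a high-affinity uptake protein of Arabidopsis roots. Averaged over the 9 libraries, Rru06G039720 stood at 68.6 FPKM and Rru04G006030 at 63.3 FPKM, a pair whose library ranges overlapped. The third gene of that name, Rru04G006050, was among the untested members, with 6 counts over the 9 libraries. One E2 24 gene (Rru05G007060) averaged 60.0 FPKM and was the only E2 24 gene to average above 1 FPKM. Its level ran from 29.7 to 88.9 FPKM over the libraries, so the first 5 genes in this order were not separated by their spread. PHR-type factors lay between 11.3 and 31.4 FPKM. Both plastid transporter 2-1 genes (Rru04G043840 and Rru05G010050), whose Arabidopsis counterpart works mainly in green tissue, averaged 0.341 and 0.283 FPKM.

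**Figure D1:**
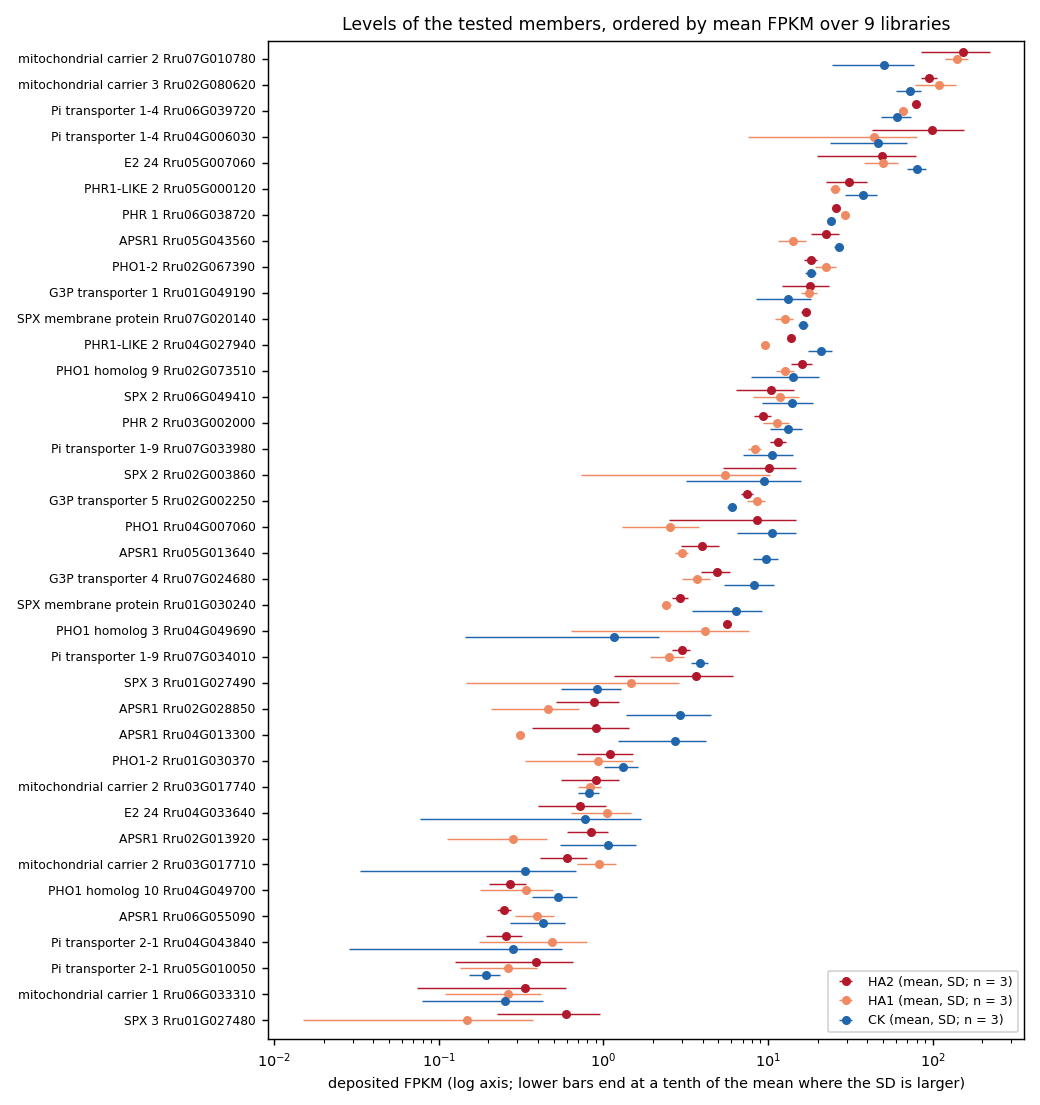
Deposited FPKM (horizontal log axis) of the 38 tested members, with the mean and SD of 3 libraries for HA2, HA1 and CK, ordered by the mean over 9 libraries. The first 5 are 2 mitochondrial carriers, 2 transporter 1-4 genes and 1 E2 24 gene, and SPX3 copy Rru01G027480, at 0.246 FPKM, is last, with no CK point because it had 0 counts there.

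The comparisons ask whether these genes differ in roots where humic acid replaced part of the phosphate. In HA1 against CK, the smaller replacement, 12 of the 38 tested members passed edgeR's quasi-likelihood test at a Benjamini-Hochberg adjusted p under 0.05 over 25260 genes. Of these, 5 were higher in HA1, or 13.2% of the tested members, where 10.9% of all tested genes were called higher, and 7 were lower, or 18.4%, where 10.3% of all were called lower. The share called higher was near that of all genes. Those that rose were 2 mitochondrial carriers, 1 PHO1-type gene, 1 glycerol-3-phosphate transporter and the factor PHR1. Those that fell were 3 APSR1 genes, PHO1, a vacuolar-type SPX transporter, PHR1-LIKE 2 and another glycerol-3-phosphate transporter. By edgeR none of the 4 tested PHT1-type genes and none of the 4 tested SPX sensor genes passed. DESeq2 called 7 members higher and 8 lower, where 14.8% and 13.3% of all genes were called. It added SPX3 copy Rru01G027480 (DESeq2 adjusted p of 0.0232) and PHO1 homolog 3 to those higher and APSR1 gene Rru02G013920 (DESeq2 adjusted p of 0.0190) to those lower. The median log2 fold change of the 38 genes was 0.11, against -0.02 for all genes tested. Groups did not overlap for 7 members higher and 9 lower in HA1, with 22.7% and 22.3% of all tested genes doing so. Scaled by total counts instead of TMM, 1 member was called higher, mitochondrial carrier 2, and 9 lower, where 6.25% and 18.4% of all tested genes were called, and the median of all genes moved to -0.31.

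These calls depended on single libraries. Without CK replicate 1 no member and no other gene passed, 0.0% of the table in each direction. Without CK replicate 3 edgeR called 0 members higher and 1 lower, with 1.45% and 1.13% of all tested genes called. Without HA1 replicate 2 the counts were also 0 higher and 1 lower, with 2.18% and 0.993% of all genes. Without HA1 replicate 1 they were 1 higher and 3 lower, with 4.03% and 2.46%, and without HA1 replicate 3 they were 2 higher and 4 lower, with 4.8% and 4.57%. Leaving out CK replicate 2 gave 7 higher and 8 lower, with 12.4% and 11.9% of all genes, and leaving out HA2 replicate 3, which enters only the filter, the scaling and the shared spread, gave 5 and 7, with 13.9% and 13.2%. The authors' deposited table, with its cut-offs of FDR 0.01 and fold 2, called 1 of 33 members with a value higher in HA1 and 4 lower, beside 9.45% and 9.23% of all genes with a value.

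**Figure D2:**
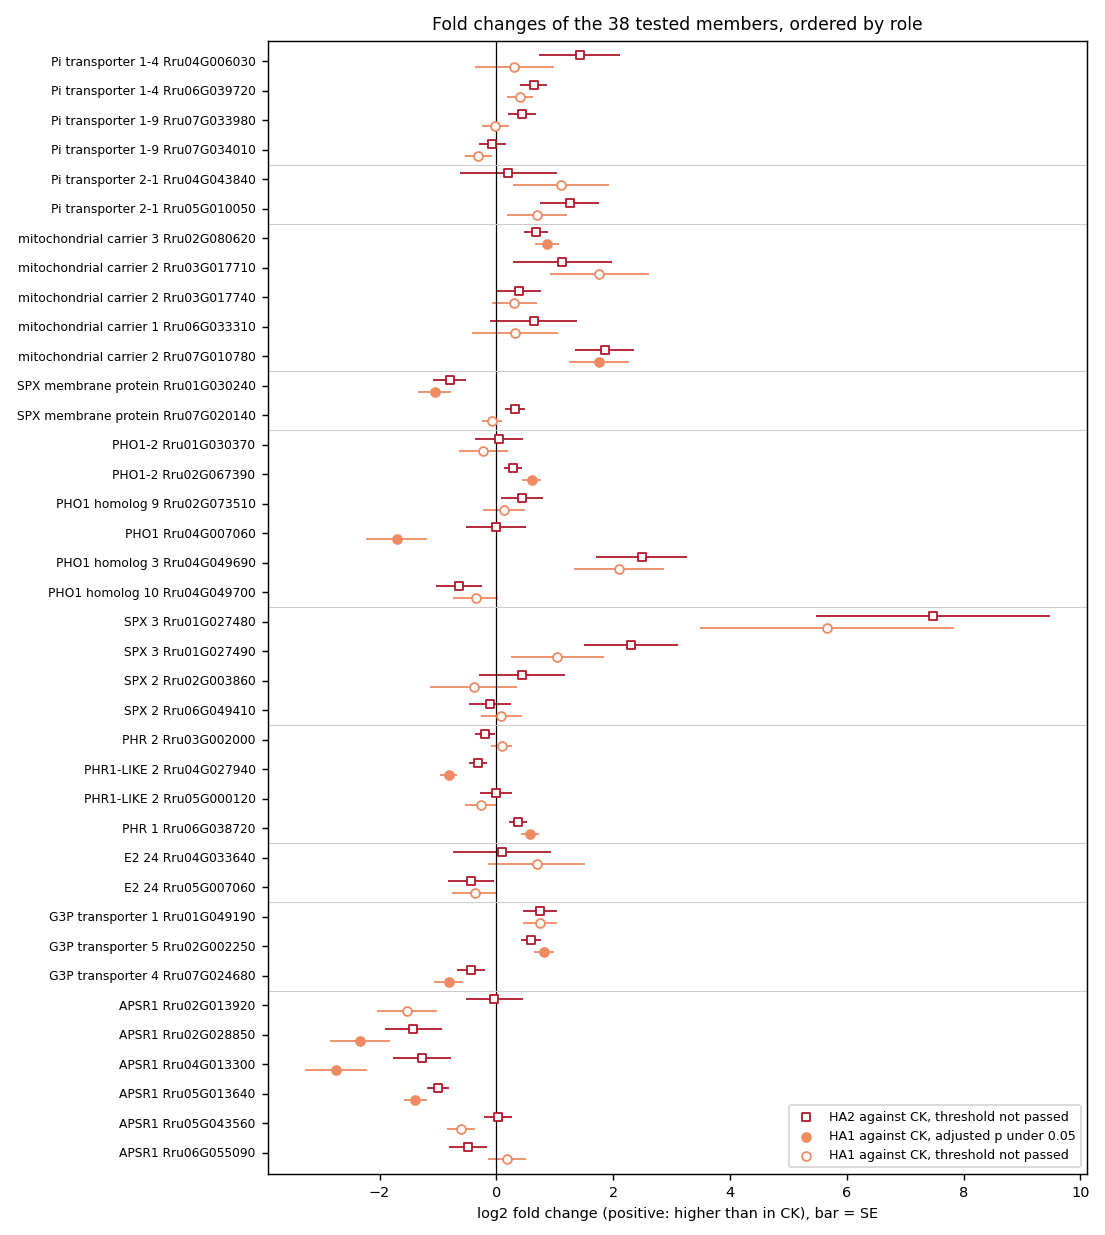
Log2 fold change of the 38 tested members (horizontal axis, bars are SE) for HA2 against CK (squares) and HA1 against CK (circles), by role from top to bottom, with filled symbols past the threshold. All 12 filled symbols belong to HA1 against CK, and the values of SPX3 copy Rru01G027480 depend on the fitting prior because CK held 0 counts.

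Among the uptake transporters, PHT1-type symporters, the 2 abundant genes differed in how evenly they were expressed. Transporter 1-4 gene Rru04G006030 stood at 229, 359 and 91.7 CPM in HA2, 35.2, 70.1 and 208 CPM in HA1 and 119, 44.4 and 90.2 CPM in CK. Replicates 1 and 2 of HA2 and replicate 3 of HA1 were above every CK library, whereas the remaining HA2 and HA1 libraries lay within or below the CK range. Its log2 fold change in HA2 against CK was 1.42 ± 0.69 (± SE, n = 3 per group) with an edgeR adjusted p of 0.280. The second gene of that name, Rru06G039720, stood at 191, 188 and 168 CPM in HA2, 134, 169.8 and 161 CPM in HA1 and 119, 149 and 83.3 CPM in CK. All 3 HA2 libraries exceeded all 3 CK libraries, and the log2 fold change was 0.64 ± 0.23, which missed the threshold (edgeR adjusted p of 0.176). HA1 overlapped CK at 0.40 ± 0.23, with an edgeR adjusted p of 0.218. Transporter 1-9, which takes part in root uptake in Arabidopsis, was also represented by a pair. Rru07G033980 had 21.0, 25.6 and 19.6 CPM in HA2, 13.2, 16.9 and 18.2 CPM in HA1 and 18.6, 11.4 and 19.0 CPM in CK, and Rru07G034010 stayed between 2.12 and 3.44 CPM in all libraries. Neither passed in any comparison, with edgeR adjusted p of 0.321 or more in both genes. Of the plastid transporter 2-1 genes, Rru05G010050 had 0.841, 0.721 and 2.19 CPM in HA2, 1.21, 0.782 and 0.545 CPM in HA1 and 0.573, 0.454 and 0.541 CPM in CK, with HA2 above CK in every library. That log2 fold change was 1.26 ± 0.51, with an edgeR adjusted p of 0.210.

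Among the SPX sensor genes, 3 of 4 had the same highest 3 libraries as transporter 1-4 gene Rru04G006030, although in SPX2 gene Rru02G003860 these were not set apart from CK. SPX3 gene Rru01G027490, whose Arabidopsis counterpart is induced by phosphate starvation, had 5.71, 8.13 and 1.24 CPM in HA2, 0.913, 0.873 and 4.51 CPM in HA1 and 1.21, 0.624 and 1.20 CPM in CK. HA2 replicates 1 and 2 and HA1 replicate 3 were far above the rest, at over 3 times the highest CK library. In HA2 against CK its log2 fold change was 2.30 ± 0.81, with an edgeR adjusted p of 0.174, and in HA1 against CK it was 1.04 ± 0.79, with 0.365. The HA1 value turned to -0.18 without HA1 replicate 3. The SPX3 copy with the neighbouring gene ID, Rru01G027480, had 25, 30 and 7 counts in HA2, 0, 2 and 15 counts in HA1 and 0 counts in all 3 CK libraries. Taking 3 counts per library as the floor, at most 0.0850 CPM in CK, its HA2 mean of 0.576 CPM was at least 6.77-fold higher, which covers counting error only. Its edgeR adjusted p was 0.139 in HA2 and 0.102 in HA1. Reads shared between these copies cannot be told apart. SPX2 gene Rru02G003860 had 17.9, 21.2 and 6.94 CPM in HA2, 3.10, 5.21 and 17.7 CPM in HA1 and 17.5, 3.37 and 13.1 CPM in CK, so each group held both high and low libraries. The other SPX2 gene, Rru06G049410, was more even, at 23.1, 18.5 and 9.99 CPM in HA2, 21.2, 12.9 and 24.9 CPM in HA1 and 20.0, 13.0 and 22.6 CPM in CK.

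In 5 of the 38 tested members the highest 3 libraries were HA2 replicates 1 and 2 and HA1 replicate 3. These were transporter 1-4 Rru04G006030, both SPX3 genes, SPX2 Rru02G003860 and glycerol-3-phosphate transporter 1 (Rru01G049190). Among all tested genes 4.18% had these as their highest 3. This set of libraries was picked after the values were seen, so it is a description with no test. In the first 4 of these genes the order was HA2 replicate 2, then HA2 replicate 1, then HA1 replicate 3.

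**Figure D3:**
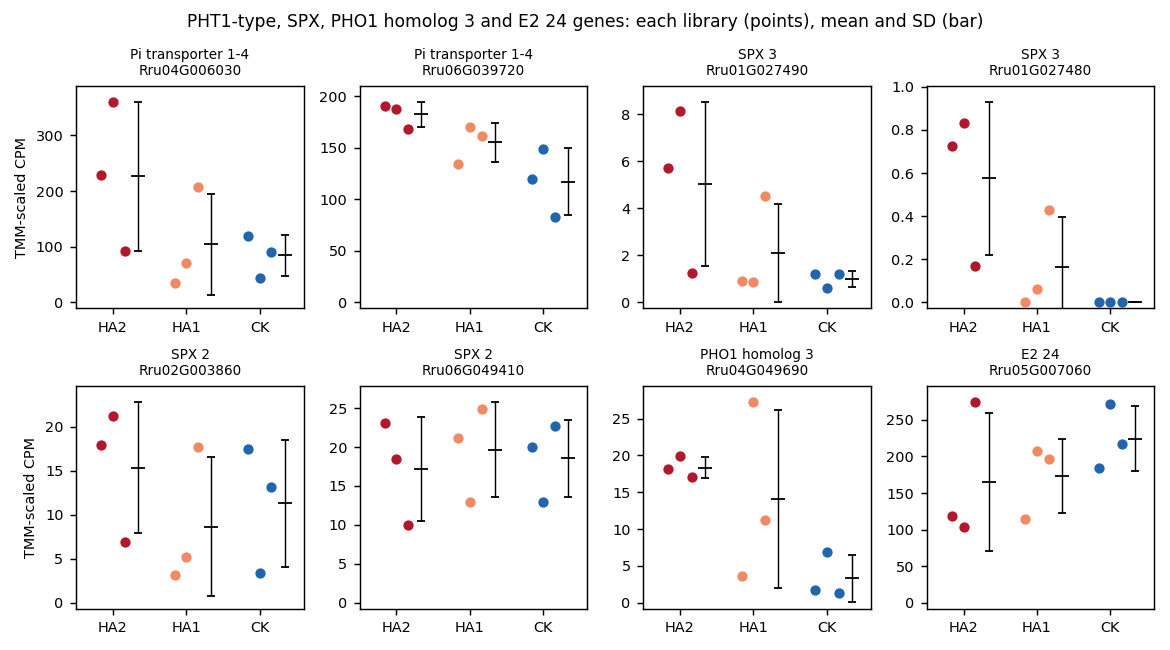
TMM-scaled CPM (vertical axes from 0) of transporter 1-4, SPX, PHO1 homolog 3 and E2 24 genes in each library, with points for replicates 1 to 3 from left to right and a bar for the mean and SD of HA2, HA1 and CK. HA2 replicates 1 and 2 and HA1 replicate 3 are high together for Rru04G006030 and for the SPX3 genes, and HA2 replicate 3 is the highest library for E2 24 gene Rru05G007060.

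PHO1-type genes moved in both directions. PHO1 itself (Rru04G007060), which in Arabidopsis exports phosphate into the xylem, had 17.0, 18.2 and 52.3 CPM in HA2, 4.70, 14.0 and 8.15 CPM in HA1 and 26.8, 21.3 and 39.7 CPM in CK. Every HA1 library was below every CK library, and HA2 replicate 3 was the highest of all 9. PHO1 fell by 1.71 ± 0.53 in HA1 against CK on the log2 scale, with an edgeR adjusted p of 0.0477. HA2 averaged 29.2 ± 20.0 CPM against 8.95 ± 4.70 CPM in HA1 (mean ± SD, n = 3 each), a log2 fold change of 1.71 ± 0.53 that did not pass (edgeR adjusted p of 0.205; DESeq2 adjusted p of 0.0334). PHO1-2 gene Rru02G067390 had 36.9, 44.1 and 35.9 CPM in HA2, 51.7, 47.1 and 46.5 CPM in HA1 and 33.1, 35.0 and 27.7 CPM in CK. All HA1 libraries were above all HA2 libraries, and these above all CK libraries. It rose by 0.60 ± 0.16 in HA1 against CK, with an edgeR adjusted p of 0.0314. HA2 differed from CK by 0.29 ± 0.16 on the log2 scale, which did not pass (edgeR adjusted p of 0.336) and became -0.016 with total-count scaling. PHO1 homolog 3 (Rru04G049690), from a family member that in Arabidopsis limits transfer to the shoot under zinc deficiency, had 18.2, 19.9 and 17.0 CPM in HA2, 3.58, 27.2 and 11.3 CPM in HA1 and 1.70, 6.92 and 1.27 CPM in CK. The 3 HA2 libraries were close together and all above CK, whereas HA1 spread from 3.58 to 27.2 CPM. Its log2 fold change was 2.48 ± 0.78 in HA2 and 2.10 ± 0.78 in HA1, with edgeR adjusted p of 0.152 and 0.0812. DESeq2 gave an adjusted p of 0.0156 in HA1, and without CK replicate 2 the HA2 difference was 3.58, with an edgeR adjusted p of 0.0421. The authors' deposited table called this gene higher in HA2, the 1 member it called there, at 2.49 on the log2 scale with an adjusted p of 0.00478. PHO1 homolog 9 (Rru02G073510) ranged from 21.6 to 69.8 CPM with overlapping groups, and PHO1 homolog 10 (Rru04G049700) and the other PHO1-2 gene (Rru01G030370) stayed below 3 CPM.

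Both abundant carriers of the mitochondrial inner membrane rose in HA1. Mitochondrial phosphate carrier protein 2 (Rru07G010780) had 242, 280.2 and 97.4 CPM in HA2, 142, 221 and 215 CPM in HA1 and 52.5, 93.7 and 25.5 CPM in CK. Every HA2 and HA1 library was above every CK library, although HA2 replicate 3 was close to CK replicate 2. It rose by 1.75 ± 0.51 in HA1 against CK on the log2 scale, with an edgeR adjusted p of 0.0407. HA2 differed from CK by 1.85 ± 0.51, which did not pass with all libraries (edgeR adjusted p of 0.134). Without HA2 replicate 3 the difference was 2.19, with an edgeR adjusted p of 0.0342, and without CK replicate 2 it was 2.36, with 0.0423. Carrier protein 3 (Rru02G080620) had 221, 195 and 175 CPM in HA2, 273, 209 and 189.5 CPM in HA1 and 141, 118 and 109 CPM in CK, with every HA2 and HA1 library again above CK. It rose by 0.87 ± 0.21 in HA1, with an edgeR adjusted p of 0.0231. In HA2 the difference was 0.68 ± 0.20, with an edgeR adjusted p of 0.146. The 3 other tested carriers (Rru03G017710, Rru03G017740 and Rru06G033310) were at 1.19 CPM or less in every library. Of these, the carrier protein 2 gene Rru03G017710 had 0.348, 0.721 and 0.512 CPM in HA2, 0.982, 0.692 and 0.775 CPM in HA1 and 0.488, 0 and 0.212 CPM in CK. HA1 did not overlap CK, and its log2 fold change of 1.76 ± 0.85 did not pass (edgeR adjusted p of 0.159).

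Both genes described as SPX domain-containing membrane protein At4g22990 belong by name to the SPX-MFS proteins, which move phosphate into the vacuole. The less abundant gene, Rru01G030240, had 10.1, 11.9 and 9.06 CPM in HA2, 7.99, 9.39 and 8.55 CPM in HA1 and 25.5, 10.9 and 17.7 CPM in CK. CK replicates 1 and 3 were the highest libraries. It fell by 1.06 ± 0.29 in HA1 on the log2 scale, with an edgeR adjusted p of 0.0330. HA2 overlapped CK replicate 2, and its log2 fold change of -0.80 ± 0.28 did not pass (edgeR adjusted p of 0.176). Without CK replicate 2 it was -1.10, with an edgeR adjusted p of 0.0350. The second gene, Rru07G020140, had 51.0, 49.4 and 53.8 CPM in HA2, 32.2, 45.9 and 38.9 CPM in HA1 and 36.6, 45.8 and 40.8 CPM in CK. Every HA2 library was above every HA1 and CK library. Neither difference passed, at 0.40 ± 0.17 against HA1 and 0.32 ± 0.17 against CK, with edgeR adjusted p of 0.302 and 0.319.

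The PHR-type transcription factors, the central activators of the starvation response, split. PHOSPHATE STARVATION RESPONSE 1 (Rru06G038720) had 52.0, 57.8 and 50.6 CPM in HA2, 56.2, 63.9 and 65.1 CPM in HA1 and 41.5, 46.1 and 36.7 CPM in CK, so that all HA2 and HA1 libraries were above all CK libraries. It rose by 0.58 ± 0.15 in HA1 against CK on the log2 scale, with an edgeR adjusted p of 0.0322. The HA2 difference was 0.37 ± 0.15, with an edgeR adjusted p of 0.221. PHR1-LIKE 2 (Rru04G027940) had 26.8, 27.2 and 25.1 CPM in HA2, 16.7, 18.6 and 20.6 CPM in HA1 and 31.8, 30.7 and 36.1 CPM in CK. The 3 groups were fully separated, with HA2 between HA1 and CK. It fell by 0.82 ± 0.15 in HA1 against CK, with an edgeR adjusted p of 0.0128. Neither HA2 difference passed edgeR, with -0.32 ± 0.15 against CK at an adjusted p of 0.264 and 0.50 ± 0.15 against HA1 at 0.199. For the second of these DESeq2 gave an adjusted p of 0.0482. PHOSPHATE STARVATION RESPONSE 2 (Rru03G002000) ran from 19.3 to 27.8 CPM over the 9 libraries. The second PHR1-LIKE 2 gene (Rru05G000120), the most abundant of these factors by FPKM, had 43.1, 56.9 and 74.0 CPM in HA2, 40.6, 53.2 and 51.4 CPM in HA1 and 51.8, 79.1 and 44.0 CPM in CK. Both overlapped between all groups.

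The abundant E2 24 gene (Rru05G007060), named after PHO2, which limits phosphate uptake, had 118, 103 and 274 CPM in HA2, 115, 208 and 196 CPM in HA1 and 184, 272 and 217 CPM in CK. HA2 replicates 1 and 2 were below every CK library and HA2 replicate 3 was slightly above the highest of them. The means were 165 ± 94.8 CPM in HA2 and 224 ± 44.5 CPM in CK (± SD, n = 3 each). No comparison passed, with edgeR adjusted p of 0.554 in HA2 against CK and 0.513 in HA1 against CK. The other tested E2 24 gene, Rru04G033640, was at 0.188 to 1.87 CPM.

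Glycerol-3-phosphate transporters, named after proteins that exchange glycerol-3-phosphate for phosphate in bacteria, also split. Transporter 5 (Rru02G002250) had 19.9, 17.8 and 17.0 CPM in HA2, 17.4, 24.9 and 21.4 CPM in HA1 and 12.1, 12.4 and 11.8 CPM in CK. Every HA2 and HA1 library was above every CK library. It rose by 0.81 ± 0.17 in HA1 on the log2 scale, with an edgeR adjusted p of 0.0170. In HA2 the difference was 0.59 ± 0.17, with an edgeR adjusted p of 0.138. Transporter 4 (Rru07G024680) had 10.5, 14.5 and 15.5 CPM in HA2, 11.5, 10.5 and 9.07 CPM in HA1 and 22.6, 12.7 and 19.4 CPM in CK. It fell by 0.82 ± 0.25 in HA1 against CK, without overlap, with an edgeR adjusted p of 0.0446. Transporter 1 (Rru01G049190) had 66.5, 52.3 and 33.7 CPM in HA2, 52.1, 47.0 and 53.9 CPM in HA1 and 37.0, 19.9 and 34.4 CPM in CK. HA1 did not overlap CK, but the log2 fold change of 0.74 ± 0.29 did not pass (edgeR adjusted p of 0.0948).

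APSR1 genes, named after an Arabidopsis gene needed to maintain the root meristem, included the largest decreases among the called members. Of 6 genes, 3 fell in HA1 against CK and 0 rose. Rru05G013640 had 12.4, 12.7 and 18.6 CPM in HA2, 11.1, 11.5 and 10.7 CPM in HA1 and 26.3, 28.2 and 32.9 CPM in CK, with HA2 and HA1 below every CK library. It fell by 1.39 ± 0.20 in HA1 on the log2 scale, with an edgeR adjusted p of 0.00973, the lowest among the members. In HA2 the difference was -1.001 ± 0.19, with an edgeR adjusted p of 0.132. Without HA2 replicate 3 it was -1.22, with an edgeR adjusted p of 0.0123, and without CK replicate 2 it was -1.06, with 0.0398. Rru04G013300 had 3.13, 1.66 and 5.53 CPM in HA2, 1.07, 1.32 and 1.32 CPM in HA1 and 9.87, 3.66 and 11.4 CPM in CK. HA1 lay below all HA2 and CK libraries, while HA2 overlapped CK replicate 2, the lowest CK library for this gene. It fell by 2.74 ± 0.53 in HA1 against CK, with an edgeR adjusted p of 0.0143. Rru02G028850 had 2.20, 1.47 and 3.29 CPM in HA2, 1.85, 0.782 and 1.03 CPM in HA1 and 8.77, 2.86 and 7.03 CPM in CK. It fell by 2.34 ± 0.51 in HA1 against CK, without overlap, with an edgeR adjusted p of 0.0188. The most abundant APSR1 gene by FPKM, Rru05G043560, had 72.4, 94.8 and 105 CPM in HA2, 41.1, 67.4 and 66.9 CPM in HA1 and 78.8, 102 and 86.3 CPM in CK. It missed the threshold in HA1 at -0.61 ± 0.24, as did Rru02G013920 at -1.54 ± 0.51, with edgeR adjusted p of 0.0949 and 0.0613. In both, HA2 was near CK, and all 3 HA2 libraries were above all 3 HA1 libraries, by 0.64 ± 0.24 and 1.503 ± 0.51 on the log2 scale, with edgeR adjusted p of 0.251 and 0.229. The lowly expressed Rru06G055090 stayed between 0.899 and 1.91 CPM.

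**Figure D4:**
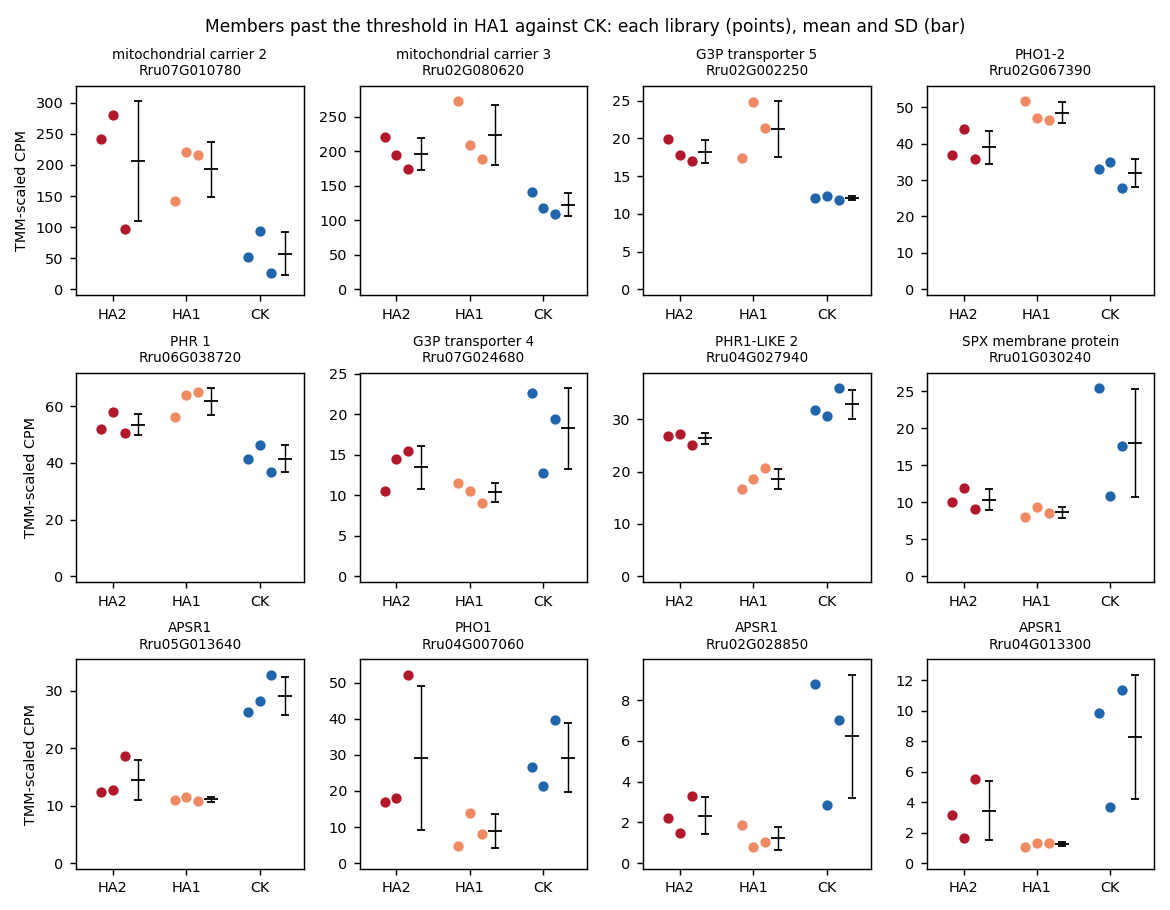
TMM-scaled CPM (vertical axes from 0) of the 12 members past the threshold in HA1 against CK, with points for replicates 1 to 3 and a bar for the mean and SD of HA2, HA1 and CK. The first 5 panels are higher and the other 7 lower in HA1 than in CK, without overlap between those groups, and HA2 replicate 3 is apart from HA2 replicates 1 and 2 for mitochondrial carrier 2 and PHO1.

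How well each of the 12 calls lasted differed. Over 9 fits that each lacked 1 library, APSR1 gene Rru05G013640 passed in 8 of 9 fits, PHR1-LIKE 2 (Rru04G027940) and glycerol-3-phosphate transporter 5 (Rru02G002250) in 6 of 9, and carrier protein 3 (Rru02G080620) and the APSR1 genes Rru04G013300 and Rru02G028850 in 5 of 9. PHR1 (Rru06G038720), PHO1-2 (Rru02G067390) and SPX membrane protein Rru01G030240 passed in 4 of 9. PHO1 (Rru04G007060) and glycerol-3-phosphate transporter 4 (Rru07G024680) passed in 3 of 9, and carrier protein 2 (Rru07G010780) in 2 of 9. The 9 fits include those lacking an HA2 library, which HA1 against CK does not compare. Among fits lacking an HA1 or CK library, PHR1, PHO1-2, Rru01G030240, PHO1, glycerol-3-phosphate transporter 4 and carrier protein 2 passed only without CK replicate 2. Without CK replicate 1 the edgeR adjusted p of the 12 was 0.0506 to 0.145. The direction of all 12 was kept in every fit that left out 1 library. This says little, because HA1 and CK did not overlap in any of the 12.

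HA2 against CK, the larger replacement, gave no called member by edgeR, 0 higher and 0 lower, where 0.00396% of all tested genes were called higher and 0.0% lower. At an unadjusted p under 0.05 edgeR gave 14 of 38 members, or 36.8%, with 20.7% of all tested genes. DESeq2 called 6 members higher and 1 lower at an adjusted p under 0.05, where 6.43% and 2.19% of all genes were called. Those higher were both SPX3 genes, PHO1 homolog 3, mitochondrial carriers 2 and 3 and glycerol-3-phosphate transporter 5, and the lower one was APSR1 gene Rru05G013640. All 3 HA2 libraries were above all 3 CK libraries for 12 members and below for 3, as for 11.0% and 10.8% of all tested genes. Without HA2 replicate 3 edgeR called 1 member higher, mitochondrial carrier 2, and 1 lower, Rru05G013640, with 4.7% and 2.41% of all tested genes called. Without CK replicate 2 it called 2 higher, mitochondrial carrier 2 and PHO1 homolog 3, and 2 lower, Rru05G013640 and SPX membrane protein Rru01G030240, with 3.95% and 1.54% of all genes. The authors' deposited table called 1 of 30 members with a value higher in HA2 and 0 lower, beside 1.36% and 0.456% of all genes with a value. The median log2 fold change of the tested members was 0.24, against -0.03 for all genes. This comparison shares its CK libraries with that of HA1.

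HA2 against HA1 asks whether the larger replacement differs from the smaller. Neither direction had a member called by edgeR (0 and 0, with 0.0% of all tested genes in each direction). At an unadjusted p under 0.05 it gave 6 members, or 15.8%, with 16.1% of all tested genes, so the share was near that of the whole table. Of 35 members with a DESeq2 adjusted p, 2 were called higher, PHO1 (Rru04G007060) and PHR1-LIKE 2 (Rru04G027940), and 0 lower, where 1.91% and 2.29% of all genes were called. For 8 members all HA2 libraries were above all HA1 libraries and for 2 they were below, with 10.1% and 14.1% of all tested genes. Those 8 were PHO1, PHR1-LIKE 2, 4 APSR1 genes, SPX membrane protein Rru07G020140 and transporter 1-9 Rru07G033980. This comparison shares its HA1 libraries with HA1 against CK and its HA2 libraries with HA2 against CK.

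**Figure D5:**
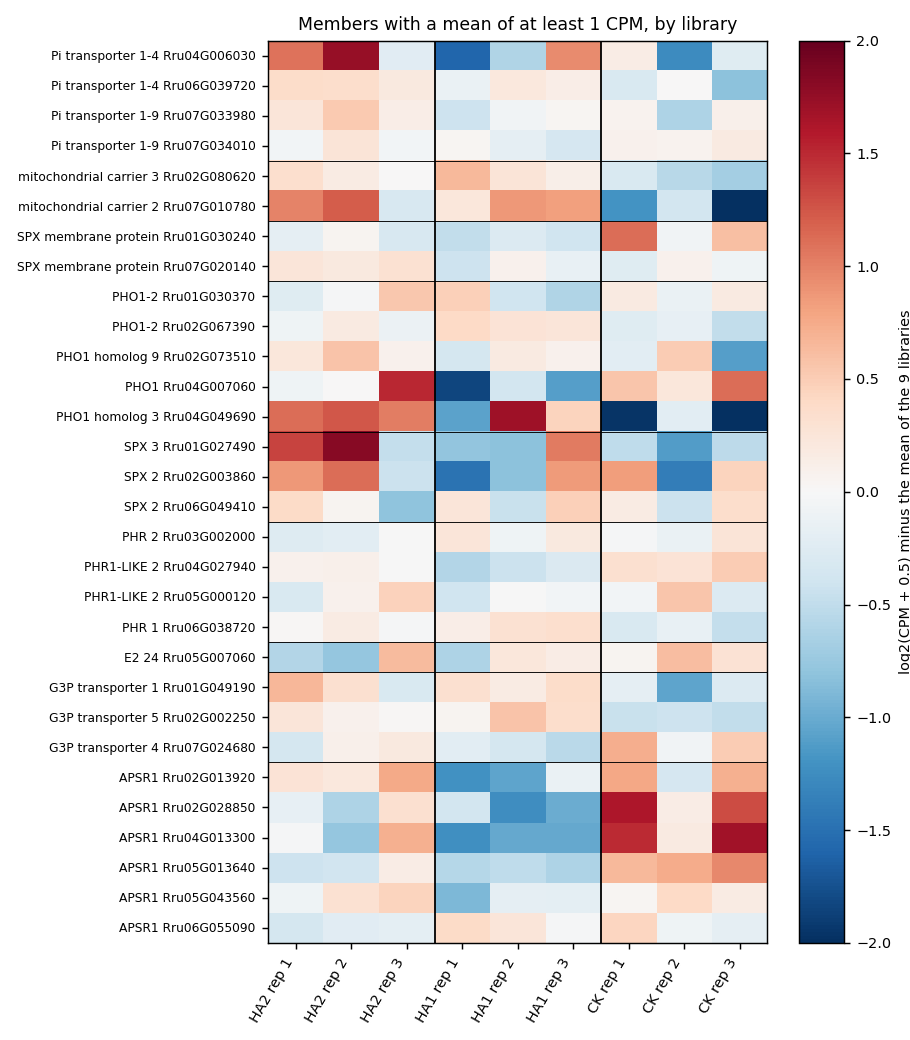
Log2(CPM + 0.5) of the 30 tested members with a mean of at least 1 CPM, relative to each gene's mean over the 9 libraries (colour, limited to 2 either way), with libraries in columns from HA2 to HA1 to CK and genes in rows by role. All CK columns are bluish for mitochondrial carriers 2 and 3 and reddish for the APSR1 genes that fell in HA1. For APSR1 genes Rru04G013300 and Rru02G028850, CK replicate 2 is near white. HA2 replicates 1 and 2 and HA1 replicate 3 are red for transporter 1-4 Rru04G006030 and SPX3.

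Other genes of the pathway, listed by words in their descriptions, were counted in the same fits, in which 10.9% of all tested genes were called higher and 10.3% lower in HA1 than in CK. Of 23 tested signalling partners (kinases of inositol phosphates, LPR and PDR2 root sensors, SIZ1, BAH1-like ligases and WRKY factors) 7 rose and 0 fell in HA1 against CK, with a median log2 fold change of 0.77. WRKY transcription factor 6 (Rru02G066440), which represses PHO1 in Arabidopsis, had 120.0, 118 and 112 CPM in HA2, 208, 204 and 157 CPM in HA1 and 52.2, 80.2 and 41.1 CPM in CK. It rose by 1.71 ± 0.26 in HA1 on the log2 scale, with an edgeR adjusted p of 0.00982. Inositol-tetrakisphosphate 1-kinase 1 (Rru01G056610), an enzyme on the way to the inositol pyrophosphates that SPX proteins bind, had 29.9, 27.3 and 26.5 CPM in HA2, 66.0, 54.8 and 45.8 CPM in HA1 and 21.2, 32.4 and 20.8 CPM in CK. It rose by 1.16 ± 0.22 in HA1, with an edgeR adjusted p of 0.0137, while HA2 was within the CK range. In each list the 2 genes named had the lowest p over both comparisons with CK.

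Of 21 tested anion transporters and phosphate translocators of plastids and Golgi, 6 rose and 2 fell in HA1 against CK (median log2 fold change 0.25). Beside this and the next 3 lists stand the same 10.9% higher and 10.3% lower of all tested genes. Probable anion transporter 6 (Rru02G002600) fell by 1.54 ± 0.25 with an edgeR adjusted p of 0.0103, and a probable sugar phosphate/phosphate translocator (Rru07G020750) rose by 1.47 ± 0.28 with 0.0144. Among 27 tested purple acid phosphatases, enzymes that free phosphate from organic phosphate esters, 6 rose and 0 fell (median 0.48). The 2 named are probable inactive members, 27 (Rru07G011710), which rose by 1.91 ± 0.52 with an edgeR adjusted p of 0.0337, and 2 (Rru04G049200), which rose by 1.19 ± 0.19 with 0.0103. Purple acid phosphatase 27 had 7.92, 6.63 and 2.12 CPM in HA2, 1.53, 1.26 and 2.58 CPM in HA1 and 0.616, 0.397 and 0.400 CPM in CK, and its HA2 difference of 3.54 ± 0.54 did not pass (edgeR adjusted p of 0.132). In membrane lipid remodelling, by which roots replace phospholipids with galactolipids, 1 of 19 rose and 0 fell (median 0.30). The 1 was monogalactosyldiacylglycerol synthase (Rru06G050530), by 3.01 ± 0.81 with an edgeR adjusted p of 0.0326, and glycerophosphodiester phosphodiesterase GDPD1 (Rru02G080420) did not pass, at 0.95 ± 0.42 with 0.126. Of 24 tested malate transporters and phosphoenolpyruvate carboxylases, listed for organic acid release, 1 rose and 3 fell (median -0.37). These were matched by description alone, so not all need serve that release, which was not measured. Aluminum-activated malate transporter 9 (Rru07G007400) fell by 1.33 ± 0.36 and phosphoenolpyruvate carboxylase 2 (Rru02G042430) fell by 1.22 ± 0.35, with edgeR adjusted p of 0.0336 and 0.0399. In HA2 against CK and in HA2 against HA1, 0 genes of these 5 lists passed. Their medians in HA2 against CK were 0.60, 0.33, 0.81, 0.63 and -0.30 in the order given, with -0.03 for all genes. No call of these lists was kept without CK replicate 1.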

How the data were processed

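Polyadenylated RNA of 9 root libraries was sequenced as paired 150-base reads on an Illumina NovaSeq, according to the labels. The single table that the authors deposited holds raw counts per gene, FPKM per gene, and their own adjusted p and log2 fold change for each pair of groups, with the cut-offs FDR 0.01 and fold 2 per the file headers. For the aligner, the counting tool and the genome build, the sources used here give no names. FPKM were used as deposited, only to compare levels between genes, and are not scaled for library composition.

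Counts were fitted with edgeR 4.0.16 (R 4.3.3): filterByExpr, TMM factors, 1 mean per group over all 9 libraries, the two-sided quasi-likelihood test and Benjamini-Hochberg adjustment over the 25260 genes tested, with a threshold of 0.05. The SE of a log2 fold change is its size over the root of the F statistic. DESeq2 1.42.0, other filters and scalings, a replicate block and leaving out each library were alternatives, and total-count scaling was added after the data were seen. With 33847262 to 42988605 counts per library, 3 counts correspond to 0.0637 to 0.0903 CPM after scaling. The labels do not say what a replicate number shares. Deviations from the group means correlated at 0.12, 0.11 and 0.32 for the same-numbered HA2 and CK libraries, all over the cut-off of 0.1. Differently numbered libraries were not correlated for reference. The 0.32 joins HA2 replicate 3 and CK replicate 3, each the lowest of its group on the first principal component. None of the same-numbered pairs of HA1 with CK or of HA2 with HA1 was over 0.1, but HA2 replicate 3 and HA1 replicate 3 stood at -0.297. Whether the numbers pair HA2 with CK cannot be told from these values or from the labels, and it was not tested. No libraries were duplicates: the lowest chi-square per degree of freedom within a group was 44.6. By this measure HA2 replicate 3 was nearest to CK replicate 2, at 89.7, against 253.6 and 209.8 from HA2 replicates 1 and 2. CK replicate 2 was also nearer to HA2 replicate 3 than to CK replicates 1 and 3, at 137.2 and 191.5. The cause was not tested.

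Named members are those past the threshold and, per role, the most abundant and the one with the lowest p. Of each list the 2 genes with the lowest p over both comparisons with CK are named, and other named members were chosen after their values were seen. The members, roles and lists were chosen with earlier results of these data known, and 2 roles (APSR1 and glycerol-3-phosphate transporters) were set apart after the descriptions were read. Of the members, 0 matched the RefSeq gene table, so no sequence or position is given.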

Additional observations from a re-analysis of the deposited data

How the results depend on the processing

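Fold changes smaller than their own SE in the main fit were left out of this count, and some of those changed sign. For transporter 1-4 gene Rru04G006030 in HA1 against CK, 0.31 became -0.68 to 0.72 over the alternatives. Of the 1142 recomputed fold changes that were counted, 1051 kept their direction and their side of the threshold. A further 62 no longer passed, 26 newly passed, and 3 reversed. Only the 12 calls of HA1 against CK could stop passing, so all 62 fall on these 12. Most of the 1051 passed neither in the main fit nor in the alternative. Of 102 recomputed counts of called members, 82 stayed within 1.5 times and 20 moved further. In HA2 against CK and in HA2 against HA1 the main counts were 0, and most of the 82 are such counts that stayed at 0. The 82 therefore do not describe how steady the counts in HA1 against CK were. In HA1 against CK, the 5 members called higher became 1 with total-count scaling, 3 with no filter on low counts and 1 when a log2 fold change of at least 1 was also required, and 0 to 7 when 1 library was left out. The 7 called lower became 0 to 8 when 1 library was left out. In HA2 against CK, the 0 called higher became 6 with DESeq2 and 0 to 2 when 1 library was left out, and the 0 called lower became 1 and 0 to 2. In HA2 against HA1, the 0 called higher became 2 with DESeq2. Of the fold changes counted, that of SPX3 gene Rru01G027490 reversed to -0.18 in HA1 against CK without HA1 replicate 3 (up to 1.41 without other libraries). That of PHO1-2 gene Rru02G067390 reversed to -0.016 in HA2 against CK with total-count scaling. That of transporter 2-1 gene Rru05G010050 reversed to -0.12 in HA2 against HA1 without HA2 replicate 3 (up to 0.916 without other libraries). Beyond what each alternative changes by construction, the cause was not tested.

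With the replicate block, HA2 against CK, where the numbers may pair the libraries, stayed at 0 members called, as did HA2 against HA1. In HA1 against CK, where no same-numbered pair was over the correlation cut-off of 0.1, the block gave 6 members higher and 7 lower. It added PHO1 homolog 3 (edgeR adjusted p of 0.0396) to those higher and APSR1 genes Rru02G013920 (0.0370) and Rru05G043560 (0.0440) to those lower, while SPX membrane protein Rru01G030240 (0.0554) and glycerol-3-phosphate transporter 4 (0.0720) were not called. Depth limits the lowest members, such as SPX3 gene Rru01G027480 with 0 counts in CK, more than the rest.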
